A study of Rattus norvegicus with 6 samples.

Results

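The antioxidant enzymes examined here are 49 genes of the rat, chosen by symbol from the 18696 genes with group averages. They are the glutathione transferases (Gst), glutathione peroxidases (Gpx), peroxiredoxins (Prdx), thioredoxins (Txn1 and Txn2), superoxide dismutases (Sod), the enzymes that make and recycle glutathione, catalase, Nqo1, Srxn1, the cystine transporter Slc7a11, and the regulators Nfe2l2 and Keap1. The tissue was the dorsal root ganglion, which holds the cell bodies of sensory neurons with their satellite glia and Schwann cells, from rats of the SD strain. For 3 RNA-seq libraries the animals had undergone spared nerve injury (SNI): the tibial and common peroneal nerves were tied and cut, and the sural nerve was kept. For the other 3, the sham group, the sciatic nerve was only exposed. The sources used here do not give the animals' age, the time after surgery, the side and level of the ganglia, or whether each library came from a separate animal. If the libraries are not from separate animals, the p-values measure a spread that may be technical.

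Superoxide, a by-product of respiration and of NADPH oxidases, is turned into hydrogen peroxide by superoxide dismutases. Catalase, glutathione peroxidases and peroxiredoxins then remove the peroxide. Most of the glutathione peroxidases use glutathione and most peroxiredoxins use thioredoxin as the electron donor. Glutathione transferases join glutathione to reactive compounds, among them aldehydes from oxidized lipids. Many of these genes are known targets of the transcription factor Nrf2 (Nfe2l2), which Keap1 holds down in unstressed cells and which binds antioxidant response elements in promoters.

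Levels are in TPM, a transcript's length-corrected share of its library, so that levels of different genes can be compared. TPM per library was given for 1637 genes, 16 of them among the 49. The other 33 had the authors' average of each group alone, with no error and no test. The authors' average read counts add up to 18.6 M in each group, and the depth of each library is unknown. In sham, the 49 genes made up 0.751% of all TPM and in SNI 0.774%. Of the 49, 45 had a larger average of at least 1 TPM. The 4 below it were Gstm3l, Gstm6l, Gstt4 and Slc7a11, which imports cystine for glutathione synthesis (0.623 and 0.650 TPM in sham and SNI).

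Promoter sequences, 250 bases before to 50 after a gene's start, came from RefSeq (build GRCr8) and matched 41 of the 49 genes by gene ID. They were searched on both strands for TGACNNNGC, a core of the antioxidant response element. It was found in 13 of the 41 genes (31.7%) and in 13.1% of all 27457 genes with a promoter. The form TGAGNNNGC was found in 5 of the 41 (12.2%) and in 18.4% of all genes. The fully specified TGACTCAGC was found in 2, Gstp1 and Prdx1, against 0.484% of all. Its counterpart TGAGTCAGC was not counted over all genes, and a match of Srxn1 below reads so. TGACTCAGC overlaps the AP-1 motif TGANTCA, which 5 of the 41 genes (12.2%) and 8.04% of all genes held. A match is a description of letters and not evidence of binding. Every match is listed for the genes called by the test or past 1.5-fold by averages (both described further on). Prdx1 and Gstp1 were added as the holders of TGACTCAGC. Matches in Gclm, Gsta3, Gstm7, Gsto2, Gstz1, Nfe2l2 and Prdx4 are not shown. The match of Gsta1 lies after the gene's start. The match of Prdx5 begins 1 base before the start, and the last of Srxn1 5 bases before, and both run past it. Each match is shown 5′ to 3′ on the gene's strand with 10 bases on either side and the motif in capitals. A motif on the opposite strand reads as its reverse complement.
Gpx2 (chr6:101230028-101230056, minus strand): acctggtttcGCTAAGTCAttctgggaat
Gpx1 (chr8:117905230-117905258, plus strand): aagaaaccgtTGAGTAAGCcagagctgga
Gpx4 (chr7:10303774-10303802, minus strand): ttcccatcacTGAGCATGCgcagttgctg
Sod2 (chr1:50050185-50050213, minus strand): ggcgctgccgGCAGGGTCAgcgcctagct
Srxn1 (chr3:161064684-161064712, plus strand): cccactgagaGCCGACTCAtcctcgctgg
Srxn1 (chr3:161064785-161064813, plus strand): tccgcgacctGCAAACTCAccctgagtca
Srxn1 (chr3:161064797-161064825, plus strand): aaactcacccTGAGTCAGCgacccgacgc
Prdx1 (chr5:135383761-135383789, plus strand): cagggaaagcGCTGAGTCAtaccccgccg
Prdx5 (chr1:213532010-213532038, minus strand): cctcctgtggGCAGAGTCAtctgcgggtg
Gstp1 (chr1:210769748-210769776, minus strand): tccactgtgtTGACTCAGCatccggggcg
Gsta1 (chr9:31216484-31216512, minus strand): aactcaggcaTGACTTTGCatttttcttc
Gstm4 (chr2:198373533-198373561, minus strand): ctctgcatctGCGCACTCAgcaggaagag
Gstm5 (chr2:198219646-198219674, plus strand): caaggccaagTGACCACGCggagggcggg
Gstm5 (chr2:198219706-198219734, plus strand): tcagtcgcgtTGACCCCGCccacagcgtc

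The 250 bases before the start of Gpx2 and of Gsta4 are shown because these 2 genes had the largest rise and the largest fall among the 16 with TPM per library. Capitals mark TGACNNNGC or TGAGNNNGC on either strand. The stretch of Gpx2 held 1 match, 13 bases before the start, and that of Gsta4 held no match.
Gpx2 (chr6:101230034-101230283, minus strand): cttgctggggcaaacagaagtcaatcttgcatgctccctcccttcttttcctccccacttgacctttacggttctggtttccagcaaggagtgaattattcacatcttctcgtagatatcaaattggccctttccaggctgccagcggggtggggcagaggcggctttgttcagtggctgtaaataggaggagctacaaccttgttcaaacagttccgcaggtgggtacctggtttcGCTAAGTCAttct
Gsta4 (chr8:87947015-87947264, plus strand): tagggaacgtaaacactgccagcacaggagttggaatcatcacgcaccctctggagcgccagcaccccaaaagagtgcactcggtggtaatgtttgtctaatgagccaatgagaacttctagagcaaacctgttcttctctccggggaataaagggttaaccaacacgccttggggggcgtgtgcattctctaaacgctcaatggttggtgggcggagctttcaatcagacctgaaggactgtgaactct

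Against sham, SNI ganglia had higher levels of 3 glutathione peroxidases, thioredoxin 1 and the transferase Gstm4, and lower levels of 4 transferases, the lipid peroxidase Gpx4 and Prdx5. All 16 genes passed the filter of a mean of at least 1 TPM. Of the 16, tested with limma on log2(TPM + 1), 5 rose, 6 fell and 5 did not pass at a Benjamini-Hochberg adjusted p under 0.05. Among all 1596 genes tested, 61.2% were called, 32.0% higher and 29.2% lower, so the share among the 16 lay near the background. How the genes with TPM per library were chosen is unknown, so these shares need not hold for all genes. The 2 groups of libraries did not overlap in the 11 called genes, as in 66.7% of all genes tested. The median log2 fold change was −0.04 over the 16 genes and 0.01 over all genes tested. Quantile normalization moved the split of all calls from 510 higher and 466 lower to 402 and 608. Within the 16 it then gave 4 higher and 7 lower, with Gpx7 no longer called (limma adjusted p = 0.12) and Gpx3 called lower (limma adjusted p = 0.027).

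**Figure D1:**
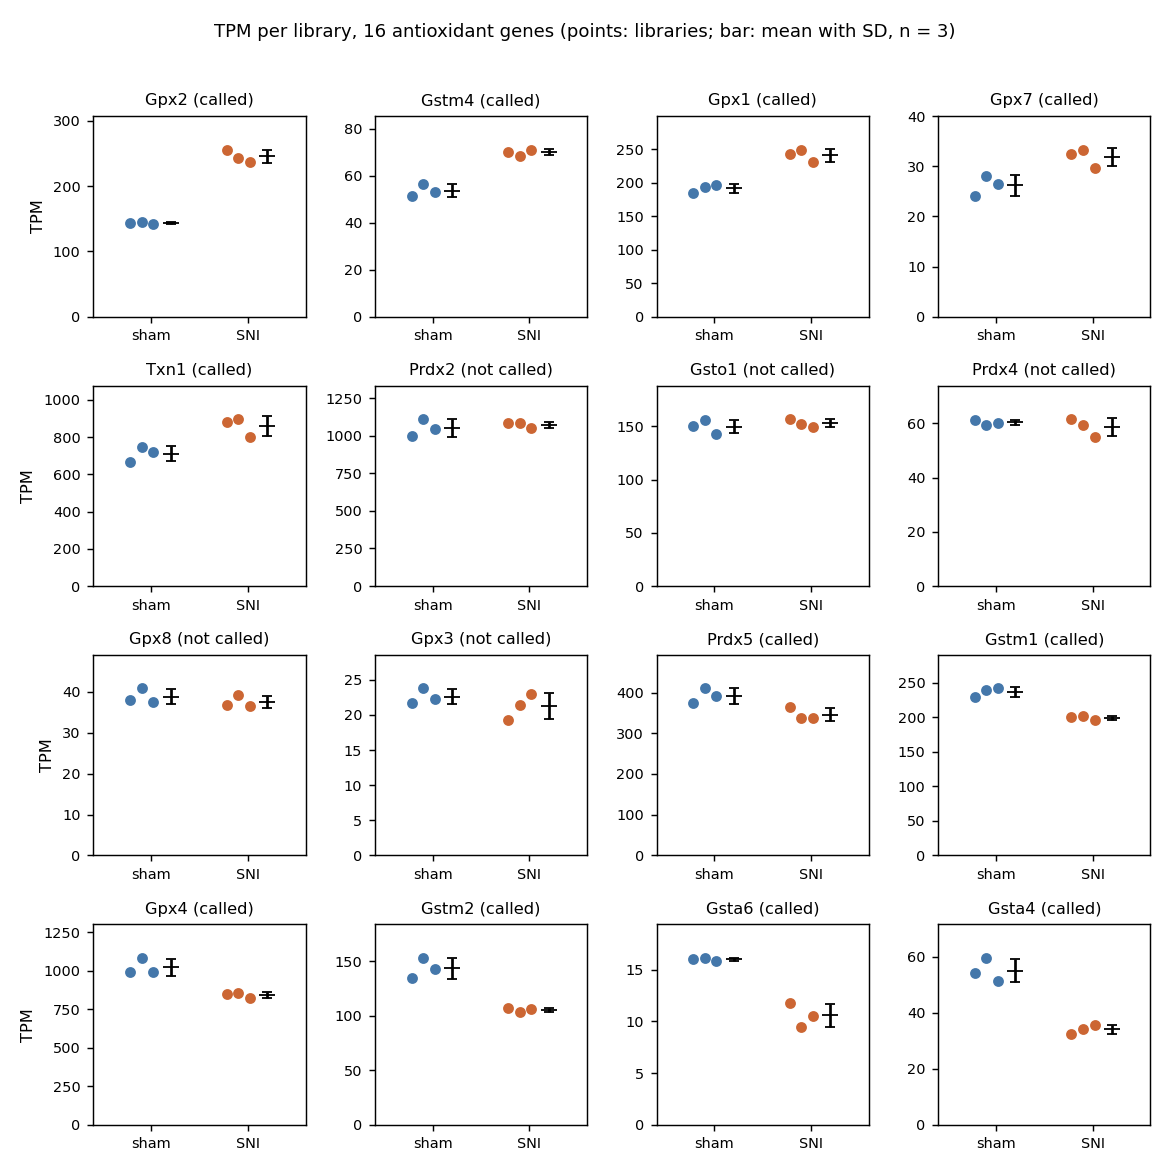
TPM of each library (points) for the 16 genes with values per library, with the mean and SD of 3 libraries beside them, ordered from the largest rise to the largest fall; each vertical axis starts at 0. Gpx2 stands at 141 to 145 TPM in sham and 237 to 256 TPM in SNI, and Gsta4 at 51.2 to 59.5 and 32.4 to 35.7 TPM.

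The glutathione peroxidases moved in different directions. Gpx2, best known from the gut epithelium, stood at 143, 145 and 141 TPM in the sham libraries and reached 256, 243 and 237 TPM in the SNI libraries. Every SNI library lay far above every sham library, and the rise was 0.77 on the log2 scale (SE 0.05, limma adjusted p = 7.4e-07). Gpx1, the widespread cytosolic enzyme, gave 185, 193 and 197 TPM in sham and then 243, 249.9 and 231 TPM in SNI. The groups were apart (log2 fold change 0.33, SE 0.05, limma adjusted p = 0.00030). Gpx7, an enzyme of the endoplasmic reticulum, had sham values of 24.0, 28.0 and 26.5 TPM and SNI values of 32.5, 33.4 and 29.8 TPM, a smaller rise (log2 fold change 0.28, SE 0.07, limma adjusted p = 0.0087).

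Gpx4, which reduces lipid peroxides in membranes and guards against ferroptosis, went the other way. It was the most abundant of the family, at 991, 1085 and 994 TPM in sham, and fell to 851, 856 and 824 TPM in SNI. All SNI libraries lay below all sham libraries (log2 fold change −0.28, SE 0.05, limma adjusted p = 0.00064). The secreted Gpx3 (21.7 to 23.8 TPM in sham, 19.3 to 23.0 in SNI) and the endoplasmic reticulum enzyme Gpx8 (37.5 to 40.9 and 36.5 to 39.3 TPM) overlapped between groups and did not pass. The 6 genes together came to 1446 ± 61.2 TPM in sham against 1421 ± 35.0 TPM in SNI (SD, n = 3 each), a difference smaller than the spread between libraries.

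Most glutathione transferases had lower averages in SNI, some by very little, such as Gstm6 and Gstt2. Only 6 of the 22 were tested: 4 were called lower, 1 was called higher and 1 was not called. Over all 1596 genes tested, 29.2% were called lower and 32.0% higher. Of 19 with a larger average of at least 1 TPM, 16 had a lower and 3 a higher average, with a median log2 ratio of −0.26. Over all 14944 genes at that level, 53.0% had a higher average and the median was 0.02. The 4 alpha class genes all had lower averages, which summed to 79.2 TPM in sham and 49.5 TPM in SNI. Gsta4, which conjugates 4-hydroxynonenal from oxidized lipids, had 54.3, 59.5 and 51.2 TPM in the sham libraries against 32.4, 34.1 and 35.7 TPM in the SNI libraries. The groups did not overlap, and the fall was the largest of the 16 (log2 fold change −0.67, SE 0.07, limma adjusted p = 2.3e-05). Gsta6 fell from 16.0, 16.1 and 15.8 TPM in sham to 11.8, 9.49 and 10.5 TPM in the SNI libraries (log2 fold change −0.56, SE 0.08, limma adjusted p = 0.00025). Gsta1 and Gsta3 had the authors' averages alone: 5.92 TPM in sham against 3.42 in SNI for Gsta1, and 2.26 against 1.44 for Gsta3.

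In the mu class, the largest of the transferase classes here, 2 of 3 tested genes fell and 1 rose. The share called over all genes tested was 61.2%. Gstm2 gave 134, 153 and 143 TPM in sham against 107, 103 and 107 TPM in SNI (log2 fold change −0.44, SE 0.06, limma adjusted p = 0.00011). Gstm1 stood at 229, 240.0 and 242 TPM and then at 200.0, 201 and 196 TPM, a fall of lesser size (log2 fold change −0.25, SE 0.04, limma adjusted p = 0.00078). Gstm4 was the exception, with all SNI libraries (70.0, 68.6 and 71.2 TPM) above all sham libraries (51.4, 56.6 and 52.9 TPM). Its rise was 0.38 on the log2 scale (SE 0.05, limma adjusted p = 0.00021). Among mu genes with averages alone, Gstm5 averaged 16.2 TPM in sham against 9.65 in SNI, Gstm7 183 against 153, Gstm3 28.3 against 25.1, and Gstm6 8.76 against 8.70. The class summed to 671 TPM in sham and 571 TPM in SNI.

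Gstp1, the pi class enzyme and the most abundant of the 22 transferases among the 49 genes, averaged 314 TPM in sham against 262 TPM in SNI. The mitochondrial and peroxisomal Gstk1 averaged 86.7 against 69.2 TPM, and Gstz1, an enzyme of tyrosine breakdown, 21.2 against 20.7 TPM. The theta class genes Gstt1, Gstt2 and Gstt3 had sham averages of 11.9, 22.7 and 35.3 TPM and SNI averages of 8.88, 22.6 and 28.9 TPM. The omega class did not share the lower averages: Gsto1 overlapped between groups (143 to 156 TPM in sham, 149 to 157 in SNI) and Gsto2 averaged 4.63 and 4.78 TPM. Over all 22 transferases the averages summed to 1396 TPM in sham and 1191 TPM in SNI.

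Transferase genes have close relatives that can share reads. The authors' average read counts were not whole when multiplied by 3 (tolerance 0.001) in 18 of the 22 transferases, in 5 of the 27 other genes and in 37.4% of all genes, so counts of single transferases were partly estimated. The split among Gsta or among Gstm genes is therefore uncertain. The class sums given above hold every gene of the class among the 49, from averages alone and with no error.

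**Figure D2:**
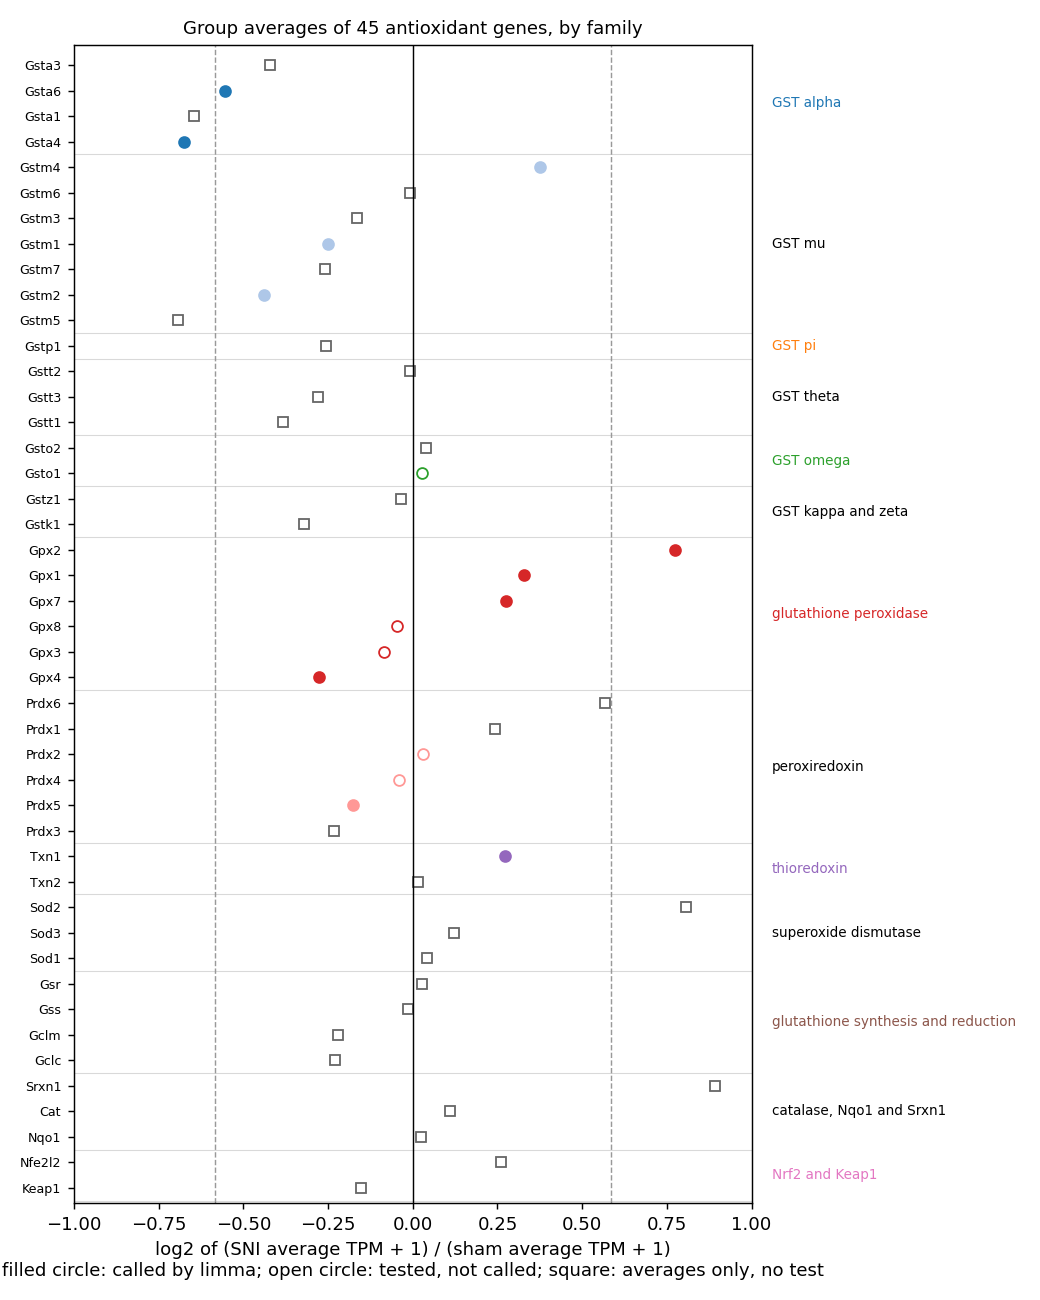
Log2 ratio of the authors' group averages, SNI over sham with 1 TPM added to each, for the 45 genes with a larger average of at least 1 TPM, grouped by family. Circles are genes tested with limma (filled where called), squares have no test, and dashed lines mark 1.5-fold; 16 of 19 transferases lie left of 0, and Srxn1, Sod2 and Gpx2 lie right of the dashed line.

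By group averages, 3 of the 45 genes were more than 1.5-fold higher in SNI and 3 more than 1.5-fold lower, counted on TPM + 1. Of all 14944 genes, 9.82% were past 1.5-fold, 7.13% higher and 2.69% lower. The higher genes were Srxn1, Sod2 and Gpx2, and the lower ones Gsta1, Gsta4 and Gstm5. Apart from Gpx2 and Gsta4 these genes have no values per library, and their differences have no test. With 0.1 TPM added in place of 1, 5 genes were lower, and with 5 TPM added, 1. None of the 49 was in the authors' deposited list of higher genes (3.63% of all genes were) or in that of lower genes (0.695%).

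Sulfiredoxin (Srxn1), which repairs overoxidized peroxiredoxins, averaged 59.2 TPM in sham against 111 TPM in SNI, a log2 ratio of 0.89 that was the highest of the 45. Among the superoxide dismutases, the mitochondrial Sod2 averaged 163 and 286 TPM (log2 ratio 0.81). The cytosolic Sod1, at 789 and 813 TPM, and the extracellular Sod3, at 160.0 and 174 TPM, had log2 ratios of 0.04 and 0.12. The 16 genes with values per library had coefficients of variation of 0.908% to 7.78% in sham and 1.42% to 10.8% in SNI. These describe the spread within a group for those 16 genes alone. The spread of Srxn1, Sod1, Sod2 and Sod3 is unknown.

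The peroxiredoxins divided. Prdx2, the most abundant of the 49 genes, stood at 995, 1111 and 1046 TPM without injury (sham) and at 1086, 1084 and 1048 TPM with it. The groups overlapped and the test was not passed (log2 fold change 0.03, SE 0.05, limma adjusted p = 0.59). Prdx5, found in mitochondria, peroxisomes and cytosol, gave 373, 410.2 and 391 TPM in sham against 364, 336 and 337 TPM in SNI. It was called lower with little room between the groups (log2 fold change −0.18, SE 0.05, limma adjusted p = 0.015), and the call was lost without SNI replicate 2 or SNI replicate 3 (limma adjusted p = 0.063 and 0.060). Prdx4, of the endoplasmic reticulum, overlapped (59.5 to 61.3 TPM in sham, 55.0 to 61.6 in SNI). Of those with averages alone, the cytosolic Prdx1 averaged 350.3 and 415 TPM, Prdx6, which uses glutathione, 156 and 232 TPM, and the mitochondrial Prdx3 131 and 111 TPM.

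Thioredoxin 1 (Txn1), the cytosolic electron donor, stood at 669, 745 and 721 TPM in the sham libraries. All SNI libraries, at 881, 898 and 799.8 TPM, were above them (log2 fold change 0.27, SE 0.06, limma adjusted p = 0.0028). Its mitochondrial counterpart Txn2 averaged 132 and 133 TPM.

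The enzymes that make glutathione had no higher averages. The catalytic and modifier subunits of glutamate-cysteine ligase, Gclc and Gclm, had sham averages of 31.4 and 75.4 TPM and SNI averages of 26.6 and 64.6 TPM. Glutathione synthetase (Gss) averaged 38.9 and 38.6 TPM and glutathione reductase (Gsr), which recycles the oxidized form, 71.0 and 72.3 TPM. Catalase averaged 118 and 128 TPM and the quinone reductase Nqo1 86.7 and 88.2 TPM. Nfe2l2 averaged 41.5 and 49.9 TPM and Keap1 48.1 and 43.2 TPM. All 8 genes lay within 1.5-fold.

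**Figure D3:**
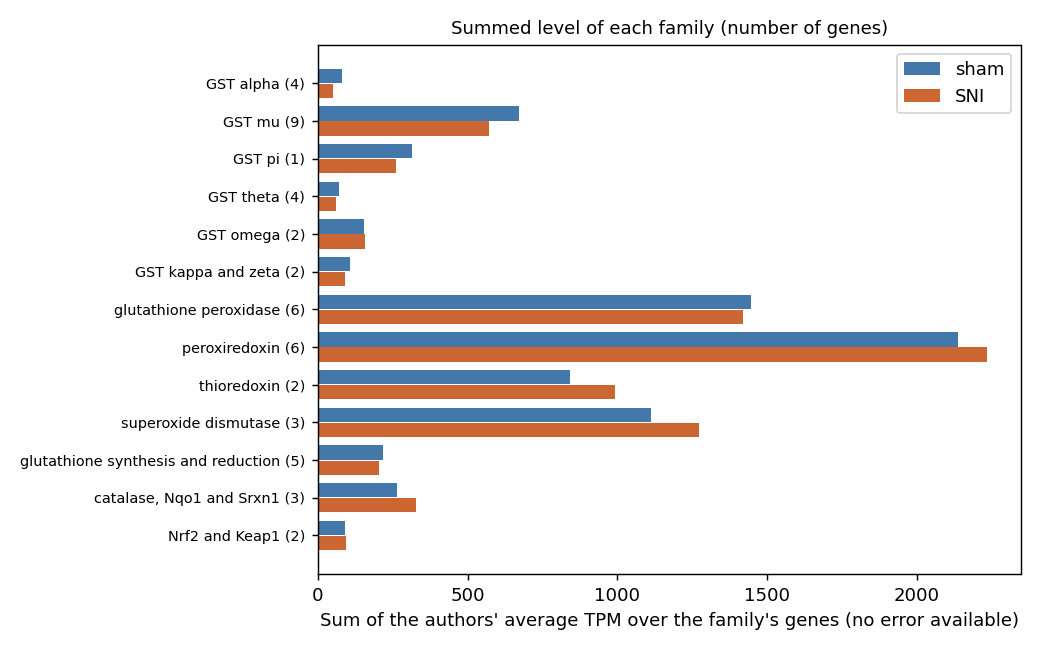
Sum of the authors' average TPM over the genes of each family in sham and SNI, with the number of genes in brackets; the sums have no error. Peroxiredoxins and glutathione peroxidases are the largest sums in both groups, and the alpha class of transferases goes from 79.2 to 49.5 TPM.

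Further genes of the same pathways were read from 6 lists, chosen by known function. In the thioredoxin list of 21 genes, 5 were tested: Glrx3, a glutaredoxin that carries iron-sulfur clusters, rose, the selenoproteins Selenow and Selenop fell, and 2 did not pass, beside the 61.2% called over all genes. Their log2 fold changes were 0.28, −0.23 and −0.15, with limma adjusted p of 0.00088, 0.0024 and 0.024. Selenop lost its call without sham replicate 1 or any 1 of the 3 SNI libraries (limma adjusted p between 0.055 and 0.072). Thioredoxin reductase 1 (Txnrd1), which recharges Txn1, averaged 63.1 TPM in sham against 101 TPM in SNI. Txnrd1 was the 1 gene of the 21 past 1.5-fold, beside 9.82% of all genes.

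Of 25 further genes of glutathione synthesis, turnover and transport, 3 were tested and 1 was called, beside 61.2% over all genes tested. The aminopeptidase Anpep rose (log2 fold change 0.43, limma adjusted p = 0.0029, and 0.11 after quantile normalization), while Mgst1 and Glo1 did not pass. The authors' higher list held Ggt5, which cleaves glutathione and its conjugates outside cells (sham and SNI averages 36.3 and 78.8 TPM), and the amino acid transporter Slc1a5 (2.33 and 5.23 TPM). That list held 3.63% of all genes. Chac1, which degrades glutathione inside cells, averaged 36.7 TPM in sham against 22.5 TPM in SNI. Of 15 genes of NADPH supply, none was in the per-library table. The mitochondrial folate enzyme Aldh1l2, at averages of 1.22 and 5.75 TPM, was the 1 gene of the 15 more than 1.5-fold higher. Of all genes, 7.13% were. The authors listed Aldh1l2 as higher. The cytosolic Aldh1l1, more than 1.5-fold lower, averaged 3.66 and 2.02 TPM and is named here after its values were seen.

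Of 25 further genes of the Nrf2 pathway, 5 were tested, 3 rose and 2 did not pass, a share close to the 61.2% called over all genes tested. Heme oxygenase 1 (Hmox1), which breaks down heme, gave 21.9, 28.0 and 28.3 TPM in sham against 45.0, 45.5 and 46.9 TPM in SNI, with no overlap (log2 fold change 0.80, SE 0.09, limma adjusted p = 5.7e-05). The ferritin light chain Ftl1 and the quinone reductase Nqo2 had log2 fold changes of 0.33 and 0.31 (limma adjusted p = 5.7e-05 and 0.0036). By averages 3 of the 23 genes of this list with a larger average of at least 1 TPM were more than 1.5-fold higher and 3 more than 1.5-fold lower, beside 7.13% and 2.69% of all genes. Among them, Ugdh, which makes UDP-glucuronic acid, averaged 17.8 and 31.5 TPM, the repressor Bach1 4.62 and 8.58 TPM, and the epoxide hydrolase Ephx1 64.6 and 36.6 TPM. The aldehyde dehydrogenase Aldh3a1, under 1 TPM in both averages (0.863 and 0.17 TPM, from 13.3 and 2.67 reads), was the 1 gene of the list in the authors' deposited list of lower genes.

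Of 15 enzymes that produce oxidants, 12 had a larger average of at least 1 TPM, and 8 of these were more than 1.5-fold higher and 0 lower, beside the 7.13% and 2.69% of all genes. Of 3 tested, Duox2, an NADPH oxidase of epithelia, and xanthine dehydrogenase (Xdh) rose and 1 did not pass. Over all genes tested, 61.2% were called. The log2 fold changes of Duox2 and Xdh were 1.25 and 0.41 (limma adjusted p = 6.8e-06 and 0.00027). Cybb and Rac2, parts of the phagocyte oxidase, had sham averages of 4.99 and 16.7 TPM and SNI averages of 10.9 and 38.6 TPM, and the monoamine oxidase Maoa averaged 33.2 against 76.1 TPM. Of the 11 genes found for metal binding and selenoprotein synthesis, 4 were tested and 1 did not pass, beside the same 61.2% called. The metallothioneins Mt2A (log2 fold change 0.98, limma adjusted p = 7.7e-06) and Mt1 (0.66, limma adjusted p = 3.0e-05) rose, while Mt3, the form known from neurons and astrocytes, fell from 776, 952 and 868 TPM to 453, 484 and 513 TPM (log2 fold change −0.84, limma adjusted p = 1.2e-05).

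**Figure D4:**
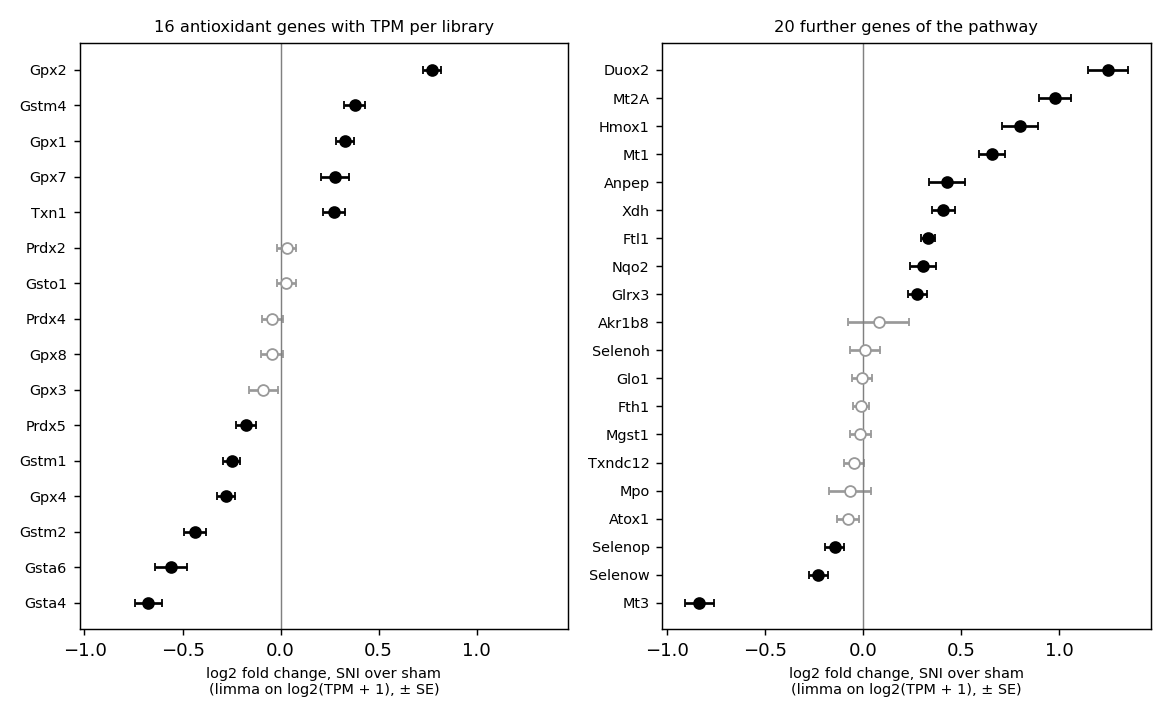
Log2 fold change of SNI over sham with its standard error, from limma on log2(TPM + 1), for the 16 antioxidant genes (left) and the tested genes of the 6 further lists (right). Filled points were called at an adjusted p under 0.05; Gpx2 at 0.77 and Gsta4 at −0.67 are the ends of the left panel, and Duox2 at 1.25 and Mt3 at −0.84 those of the right panel.

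In whole tissue, fewer cells of a type and less RNA per cell cannot be told apart. Markers of other cells differed between the same groups. All 5 markers of myelinating Schwann cells that were read (Mbp and Pmp22 among them) averaged more than 1.5-fold lower in SNI, with sums of 5028 and 2907 TPM. Of 8 macrophage markers, 6 averaged more than 1.5-fold higher, with sums over all 8 of 107 and 239 TPM. These 6 had no test. The 2 that were tested, Mrc1 and Cd163, were not called (limma adjusted p = 0.073 and 0.73). Of 10 erythrocyte genes, 9 averaged more than 1.5-fold higher, with sums of 1425 and 4268 TPM. The 6 satellite glia markers, the 7 neuronal markers and the 6 endothelial markers had sham sums of 8774, 20362 and 111 TPM and SNI sums of 8010.0, 20018 and 107 TPM. The satellite glia sum was mostly Apoe (8348 and 7526 TPM), while the other 5 of the 6 averaged higher, with Fabp7 at 109 and 151 TPM. Of the neuronal markers 5 averaged lower and 2 higher, with log2 ratios of −0.57 for Rbfox3, −0.43 for Snap25 and 0.37 for Tubb3. Of these 3 lists, Nefh was the 1 gene past 1.5-fold, at 4485 and 2877 TPM. The 7 genes of fibroblasts and meningeal cells summed to 857 and 793 TPM, with 2 of them, Slc6a20 and Slc6a13, more than 1.5-fold lower. No marker found in the files was at 0 in either average. Of antioxidant enzymes abundant in red cells, Prdx2, Sod1 and catalase had log2 ratios of the averages of 0.03, 0.04 and 0.11, and Gpx1, called higher, had 0.33. These genes were on no list fixed beforehand, and other antioxidant enzymes of red cells were not gone through. The part of these cell types in the differences of the antioxidant genes was not tested.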

How the data were processed

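RNA-seq values of 3 SNI and 3 sham libraries were read from the deposited tables. These hold, per the file headers, TPM of each library (1637 genes) and each group's average TPM and average read count (18696 genes). The deposited read counts are estimated counts, averaged by the authors with no counter named. The columns named control were taken as sham. The sources used here do not give the aligner, the genome build, the strand setting, the way the 1637 genes were chosen or the test that made the authors' 2 lists of genes. In the 1628 genes of both tables, the means over libraries equalled the deposited averages (tolerance 0.001 TPM). The library columns summed to between 25.8% and 27.1% of a full TPM total.

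A mean of 1 TPM or more was required (1596 genes; 41 were left out). For these, limma 3.58.1 under R 4.3.3 compared log2(TPM + 1) between the groups, with group alone in the design and a trend of the variance on the mean level. P-values were adjusted by Benjamini-Hochberg over all 1596 genes. The fit was tested on simulated data. Fold changes on this scale understate those of low genes. An exact permutation test was not used, since with 3 libraries a group its smallest two-sided p is 0.1. Group averages were compared as a ratio of TPM + 1, with no test, and called past 1.5-fold at a larger average of at least 1 TPM. The antioxidant genes, the 6 further lists and the 7 marker lists were chosen with earlier results of these data known. One marker gene is not reported here and was left out of its list. All antioxidant genes are named, and of each further list up to 3 called genes with the largest change and up to 3 genes past 1.5-fold outside the per-library table with a larger average of at least 5 TPM. Gene IDs of 48 of the 49 genes were found in a RefSeq table of GRCr8. Which build the files use is unknown, so coordinates belong to the RefSeq promoters alone. Python 3.11.15, pandas 2.3.3 and matplotlib 3.10.9 were used. Alternatives covered the pseudocount, the filter, quantile normalization, median centring, the trend, the replicate block and leaving out each library.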

Additional observations from a re-analysis of the deposited data

How the results depend on the processing

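Of the values of the 16 antioxidant genes under these alternatives, 214 kept direction and side of the threshold. Another 6 changed sign, 3 lost the call and 1 gained a call. The count of antioxidant genes called stayed at 5 higher and 6 lower except under quantile normalization (4 and 7) and without SNI replicate 2 or 3 (5 lower). Signs changed for genes that were not called: Prdx2 went to −0.025 with quantile normalization and −0.015 with median centring, and Gsto1 to −0.016 with median centring. With 1 library left out, the log2 fold change of Prdx2 ranged from −0.0077 to 0.072, that of Gsto1 from −0.0033 to 0.057 and that of Prdx4 from −0.077 to 0.0028. With 2-fold in place of 1.5-fold, 0 genes were higher and 0 lower by averages. With 0.1 TPM added, 5 were lower, and with 5 TPM added, 1.

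Same-numbered libraries share only a number: their deviations correlated at −0.09, −0.06 and 0.19 over genes. With a replicate block the fit called 498 genes higher and 447 lower, against 510 and 466, and 5 and 6 of the antioxidant genes. The unknown depth of each library limits what can be said of genes at few reads, such as Gsta1, with 41.8 reads on average in sham and 24.1 in SNI.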
